A study of Mus musculus with 16 samples.

Results

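Transforming growth factor beta (TGF-beta) ligands, receptors and SMADs were examined in whole-liver RNA of mice. The set holds 9 genes of the 25719 in the deposited table, chosen by gene name: the ligand genes Tgfb1, Tgfb2, Tgfb3, Inhba and Bmp8b, the receptor genes Tgfbr1 and Tgfbr2, and the SMAD genes Smad3 and Smad7. The livers came from 16 male mice that were 8 to 12 weeks old when feeding began and received their diet for 3 weeks. WT mice of strain C57BL6J received normal chow (NCD, n = 4) or the steatosis-steatohepatitis diet (SSD, n = 5), which is rich in fat, fructose and cholesterol. Klrk1-/- mice, which lack the activating lymphocyte receptor NKG2D in every cell, received NCD (n = 4) or SSD (n = 3). Whether the genotypes were littermates is not given in the sources used here, so genotype and breeding line cannot be told apart. The mice are separate animals by their labels, with 1 library each.

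TGF-beta is secreted in a latent form, and once released it binds a type II receptor, which recruits and activates a type I receptor. The type I receptor phosphorylates the receptor-regulated SMADs, which enter the nucleus with SMAD4 and act on target genes, and inhibitory SMADs counter this step. In the liver the pathway is known for activating hepatic stellate cells, the source of most scar collagen, and activins and bone morphogenetic proteins (BMPs) signal through related receptors.

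The libraries held between 19892025 and 28936707 reads on genes. As a check on the genotype labels, Klrk1 itself had 19 to 87 reads in each WT mouse and 1 to 7 in each Klrk1-/- mouse. The 6 hepatocyte markers made up between 7.50% and 10.3% of all normalized counts in every library, and none was at 0 in any group. Replicate libraries of a group differed by more than sampling noise in all 25 pairs, with a chi-square of at least 14.2 per gene. SSD-fed WT replicate 1 stood apart from the other replicates of its group in macrophage and monocyte markers, so values without it are given for the members. For the named pathway genes whose calls rest on this group, the number called also without it is given. In whole liver, fewer cells of a type and less RNA per cell cannot be told apart.

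The regions before the starts of Tgfb1, Inhba and Bmp8b are shown because these are the ligand genes whose groups separated in at least 1 comparison. Each sequence is the 250 bases upstream of a RefSeq start, read 5′ to 3′ on the gene's strand from the RefSeq promoter table of build GRCm38.p6, and each was found once on its chromosome in GRCm39. The Tgfb1 sequence lies at chr7:25386177-25386426 (plus strand), that of Inhba at chr13:16186186-16186435 (plus strand) and that of Bmp8b at chr4:122998704-122998953 (plus strand). Capitals mark matches, on either strand, to the SMAD box (CAGAC), the GC box (GGGCGG), the TATA box (TATAAA) and the AP-1 site (TGANTCA).
Tgfb1: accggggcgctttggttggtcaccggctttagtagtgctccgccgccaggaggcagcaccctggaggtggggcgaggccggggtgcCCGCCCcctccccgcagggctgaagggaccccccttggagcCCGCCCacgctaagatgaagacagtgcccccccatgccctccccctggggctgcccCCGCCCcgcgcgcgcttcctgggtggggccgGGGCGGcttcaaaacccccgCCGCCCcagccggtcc
Inhba: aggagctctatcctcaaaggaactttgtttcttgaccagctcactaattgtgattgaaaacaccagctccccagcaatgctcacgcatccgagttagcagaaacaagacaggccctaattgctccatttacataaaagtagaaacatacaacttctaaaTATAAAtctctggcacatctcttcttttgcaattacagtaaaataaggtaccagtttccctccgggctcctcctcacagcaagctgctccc
Bmp8b: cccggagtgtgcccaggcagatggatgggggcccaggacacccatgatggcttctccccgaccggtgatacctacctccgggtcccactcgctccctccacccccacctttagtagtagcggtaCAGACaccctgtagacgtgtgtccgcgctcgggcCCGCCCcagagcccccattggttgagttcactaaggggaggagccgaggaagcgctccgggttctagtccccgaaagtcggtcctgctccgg
The Tgfb1 sequence holds 5 GC boxes and 75.2% G and C bases, that of Inhba 1 TATA box and 43.2%, and that of Bmp8b 1 SMAD box, 1 GC box and 65.2%. Among 32851 RefSeq promoters of the same length, 42.2% hold a SMAD box, 32.7% a GC box, 12.4% a TATA box and 6.75% an AP-1 site. Promoters were taken for 7 of the 9 genes, since Tgfb3 had no RefSeq promoter entry and Smad7 was not looked up. A match describes the letters only and was not tested for binding.

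Per kilobase of the gene length that the authors deposited, and averaged over the NCD-fed WT mice, Smad3 and Tgfbr1 were at the highest levels of the 9 genes, at 277 ± 64.9 and 197 ± 15.1 normalized counts per kb (SD, n = 4). Inhba followed at 108 ± 17.4, and Tgfb1, Smad7 and Tgfbr2 were at 89.3 ± 10.7, 88.6 ± 6.32 and 80.6 ± 13.4 normalized counts per kb. The other TGF-beta isoforms were scarce, with Tgfb2 at 10.4 ± 4.74 and Tgfb3 at 7.43 ± 2.19 normalized counts per kb. Bmp8b was at 0.518 ± 0.424 normalized counts per kb and thus near the detection limit in these mice. The order depends in part on the length used. With the merged exon bases of GENCODE M39, a choice made after seeing the data, Tgfbr1 (74.4 ± 5.70) and Smad3 (68.3 ± 15.97) overlapped within their SD, followed by Inhba (59.96 ± 9.71), Tgfbr2 (53.0 ± 8.81), Smad7 (30.3 ± 2.16) and Tgfb1 (21.7 ± 2.59), with Tgfb3 (4.82 ± 1.42), Tgfb2 (3.02 ± 1.38) and Bmp8b (0.188 ± 0.154) lowest on both scales.

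**Figure D1:**
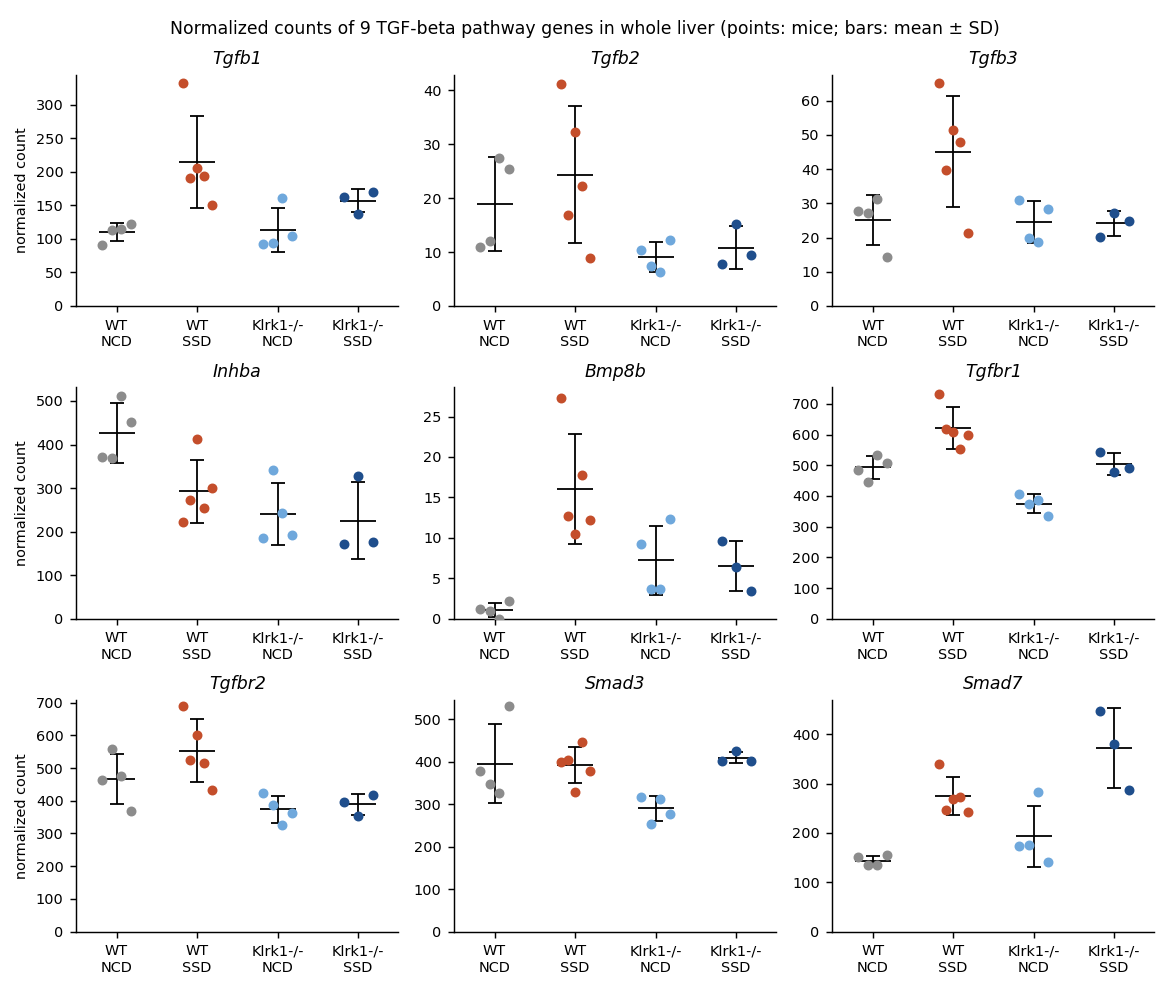
Normalized count (linear axis from 0, 1 panel per gene) of the 9 genes in each mouse (points), by genotype and diet, with the group mean ± SD (bars). Of the genes called, Tgfb1 and Smad7 separate the diets in WT mice, Smad7 also separates them in Klrk1-/- mice, and Inhba in NCD-fed Klrk1-/- mice lies below all NCD-fed WT mice. Of those not called, Tgfbr1 and Bmp8b separate the diets in WT mice, Tgfbr1 and Smad3 in Klrk1-/- mice, and Tgfbr1, Smad3 and Bmp8b the genotypes on NCD. Of all genes tested, 29.0%, 37.6% and 19.3% did not overlap in these comparisons, in this order.

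The first comparison addressed what 3 weeks of SSD did to the pathway in WT mice. The genes of the ligand TGF-beta 1 and of the inhibitory SMAD7 rose, by 1.88-fold and 1.89-fold. A gene was called when its adjusted p in limma's test was under 0.05 and its change exceeded 1.5-fold in either direction. By this rule 2 of the 8 genes tested were called, both higher on SSD, where 19.3% of all 13091 genes tested were called, 11.9% higher and 7.32% lower. The share of called members is therefore near that of all genes. The median log2 fold change of the 9 genes was 0.33, against -0.0015 for all genes tested. Bmp8b had too few reads for the test, which needs a mean normalized count of at least 10.

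Tgfb1 encodes the main TGF-beta isoform of the injured liver and lies on chromosome 7 of GRCm39 (25386427 to 25404502, plus strand, ENSMUSG00000002603). Its normalized counts were 91.7, 113, 115 and 122 in the 4 NCD-fed WT mice and 333, 191, 207, 195 and 151 in the 5 SSD-fed WT mice. Every SSD-fed mouse exceeded every NCD-fed mouse, and replicate 1 was the highest by a wide margin. On the log2 scale the change was 0.91 ± 0.20 (SE), with a limma adjusted p of 0.00418. Exact permutation of the mice, two-sided, gave p = 0.0159, which is as low as 4 against 5 mice can go. Without SSD-fed WT replicate 1 the log2 fold change was 0.74 (limma adjusted p = 0.00160).

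Smad7, on chromosome 18 (75500600 to 75529006, plus strand, ENSMUSG00000025880), encodes an inhibitory SMAD that blocks the type I receptor and is itself a target gene of the pathway. NCD-fed WT mice had 151, 136, 134 and 154 normalized counts, and SSD-fed WT mice had 339, 248, 268, 274 and 242. The diets did not overlap, and the NCD-fed mice lay close together. On the log2 scale Smad7 rose by 0.92 ± 0.12 (SE, limma adjusted p = 0.000162, exact permutation p = 0.0159), and by 0.84 without SSD-fed WT replicate 1 (limma adjusted p = 9.53e-05).

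The receptor genes changed less. Tgfbr1, which encodes the type I receptor (chromosome 4, 47353222 to 47414931, plus strand, ENSMUSG00000007613), had 485, 445, 534 and 507 normalized counts on NCD and 733, 617, 608, 552 and 598 on SSD. All SSD-fed mice lay above all NCD-fed mice, but the change of 1.26-fold was below the limit of 1.5-fold (log2 fold change 0.33 ± 0.10 SE, limma adjusted p = 0.0224). The value without SSD-fed WT replicate 1 was 0.27 (limma adjusted p = 0.0368). Tgfbr2, which encodes the type II receptor (chromosome 9, 115913361 to 116004428, minus strand, ENSMUSG00000032440), ranged from 369 to 558 normalized counts on NCD and from 434 to 689 on SSD. These groups overlapped, and the log2 fold change of 0.24 ± 0.15 (SE) did not pass the test (limma adjusted p = 0.211), and it was 0.16 without that mouse.

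Inhba encodes the subunit that forms activin A and lies on chromosome 13 (16186436 to 16206206, plus strand, ENSMUSG00000041324). It had 371, 369.5, 512 and 452 normalized counts in NCD-fed WT mice and 223, 273, 412, 255 and 299.6 in SSD-fed WT mice. In 4 of the 5 SSD-fed mice it was under the whole NCD range, and replicate 3 lay within that range. The log2 fold change of -0.56 had a limma adjusted p of 0.0228, but at 0.678-fold it stayed just inside the fold limit. Inhba was called lower without NCD-fed WT replicate 1 (-0.62), NCD-fed WT replicate 2 (-0.62) or SSD-fed WT replicate 3 (-0.69), and without SSD-fed WT replicate 1 it was -0.47 and not called.

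The minor TGF-beta isoforms varied widely on SSD. Tgfb3 (chromosome 12, 86103519 to 86125815, minus strand, ENSMUSG00000021253) had 27.7, 27.2, 31.3 and 14.3 normalized counts on NCD and 65.1, 39.7, 51.4, 48.0 and 21.2 on SSD. In 4 of the 5 SSD-fed mice it exceeded every NCD-fed mouse, and replicate 5 was the exception. Its log2 fold change of 0.79 ± 0.33 (SE) did not pass the test (limma adjusted p = 0.0814), and without SSD-fed WT replicate 5 it was 1.03 and called (limma adjusted p = 0.0144). Tgfb3 was also called with DESeq2 (0.86, adjusted p = 0.0466), with all 4 groups in 1 limma model (adjusted p = 0.0416) and with libraries scaled to equal totals (1.12, limma adjusted p = 0.0161), and without SSD-fed WT replicate 1 it was 0.63 (limma adjusted p = 0.145). Tgfb2 (chromosome 1, 186354989 to 186438186, minus strand, ENSMUSG00000039239) ranged from 10.9 to 27.4 normalized counts on NCD and from 8.98 to 41.2 on SSD, and it differed by 0.29 ± 0.44 on the log2 scale (SE, limma adjusted p = 0.642), or by 0.06 without SSD-fed WT replicate 1. Tgfb3 overlaps Ttll5 on the opposite strand by 179 exon bases in the GENCODE M39 annotation. Whether reads were counted by strand is not given in the sources used here, so reads from this stretch cannot be assigned to either gene.

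Smad3 encodes a receptor-regulated SMAD that carries the TGF-beta and activin signal (chromosome 9, 63554049 to 63665276, minus strand, ENSMUSG00000032402). Its normalized counts ranged from 326 to 531 in NCD-fed WT mice and from 329 to 446 in SSD-fed WT mice. The log2 fold change was 0.0044 ± 0.14 (SE, limma adjusted p = 0.984), and -0.0045 without SSD-fed WT replicate 1.

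Bmp8b encodes a BMP known for its role in brown fat and lies on chromosome 4 (122998958 to 123025892, plus strand, ENSMUSG00000002384). The NCD-fed WT mice had 1, 1, 0 and 2 reads and the SSD-fed WT mice 41, 15, 11, 20 and 15, which corresponds to 27.2, 12.7, 10.5, 17.8 and 12.2 normalized counts. With 4 reads on NCD against 102 on SSD, the ratio was 14.6 after division by the number of mice and the factor of each library, as for every ratio of reads given here (95% exact interval 5.55 to 54.7, which covers counting error only). Without SSD-fed WT replicate 1, which held 41 of these reads, the ratio was 11.6 (95% exact interval 4.32 to 44.0). The groups did not overlap (exact permutation test, p = 0.0159), and without a minimum mean the log2 difference of 3.06 had a limma adjusted p of 0.000200. All 4 NCD-fed WT mice were at or under a floor of 3 reads, so this fitted value depends on the pseudocount. In the GENCODE M39 annotation Bmp8b shares 3339 of its 5868 exon bases with Ppie on the opposite strand. Ppie was at 299 to 313 normalized counts in NCD-fed WT mice and at 245 to 316 in SSD-fed WT mice. The paralog Bmp8a shares 1.89% of the windows of 100 bases in the Bmp8b transcripts and had 0 reads in every library. Beside Bmp8b, 3 of the 8 genes tested (Tgfb1, Tgfbr1 and Smad7) did not overlap between the diets, as did 29.0% of all genes tested.

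**Figure D2:**
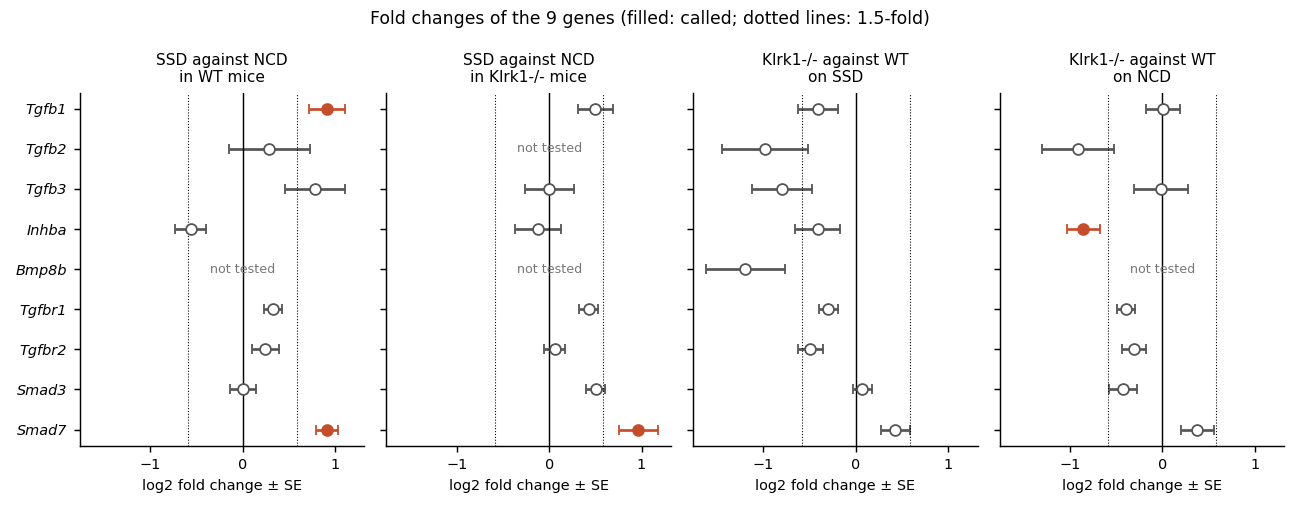
log2 fold change ± standard error (x axis) of the 9 genes (y axis) in 4 comparisons, on the scale of log2(normalized count + 1). Filled points were called, dotted lines mark 1.5-fold, and genes below the minimum mean are written as not tested. Called points are Tgfb1 (0.91) and Smad7 (0.92) in WT mice, Smad7 (0.97) in Klrk1-/- mice and Inhba (-0.85) between genotypes on NCD.

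Of 108 other genes of the pathway, in 6 lists by role, 87 were tested in WT mice and 30 of them were called, 25 higher and 5 lower on SSD. Over all genes tested 19.3% were called, 11.9% higher and 7.32% lower. The median log2 fold change of the pathway genes tested was 0.39, against -0.0015 for all genes, and 28 were called without SSD-fed WT replicate 1. By role, 10 of 15 ligands (7 higher, 3 lower), 1 of 9 receptors, 1 of 6 SMADs, 3 of 15 genes of latency and activation, 3 of 17 inhibitors (2 higher, 1 lower) and 12 of 25 target genes (11 higher, 1 lower) were called. The ligand list follows gene names and so holds Bmp1, which encodes a protease rather than a ligand and was called lower (-0.60), and without it 9 of 14 were called. Which receptor the product of each listed gene uses, Gdf15 included, was not checked. The examples below are those with the largest changes of each role. Among ligands, the stress-induced growth factor gene Gdf15 went from 86.8 ± 28.0 (SD, n = 4) to 624 ± 195 normalized counts (SD, n = 5), a rise of 2.83 on the log2 scale (limma adjusted p = 1.10e-05). The activin subunit gene Inhbb rose by 2.69 on the log2 scale (limma adjusted p = 2.73e-05) and Gdf9 by 2.17 (limma adjusted p = 0.000295), both from under 10 normalized counts on NCD. The only receptor called was Acvrl1, the endothelial type I receptor ALK1 (0.73, limma adjusted p = 0.0277, but 0.58 and not called without SSD-fed WT replicate 1), and the only SMAD was Smad9, of the BMP branch (1.59, limma adjusted p = 0.00177).

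Genes that hold or release latent TGF-beta were called higher for the integrin subunit Itgb3 (1.07), the latency protein Ltbp1 (0.81) and the latent TGF-beta anchor Lrrc32 (0.73). Of the inhibitors, the activin antagonist Fst fell by 1.22 on the log2 scale, whereas Pmepa1 (1.06) and the SMAD corepressor Tgif1 (0.85) rose. Leading target genes included Timp1, an inhibitor of matrix proteases (2.86), and the cell cycle inhibitor Cdkn1a (2.52). Timp1 ranged from 13.1 to 167 normalized counts among SSD-fed WT mice and averaged 5.07 ± 2.47 (SD, n = 4) on NCD, so it reached the minimum mean only through the SSD-fed mice, as Inhbb and Gdf9 did. Of the 14 pathway genes picked for their size of change in this comparison, 13 were called also without SSD-fed WT replicate 1. These targets also respond to other signals.

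**Figure D3:**
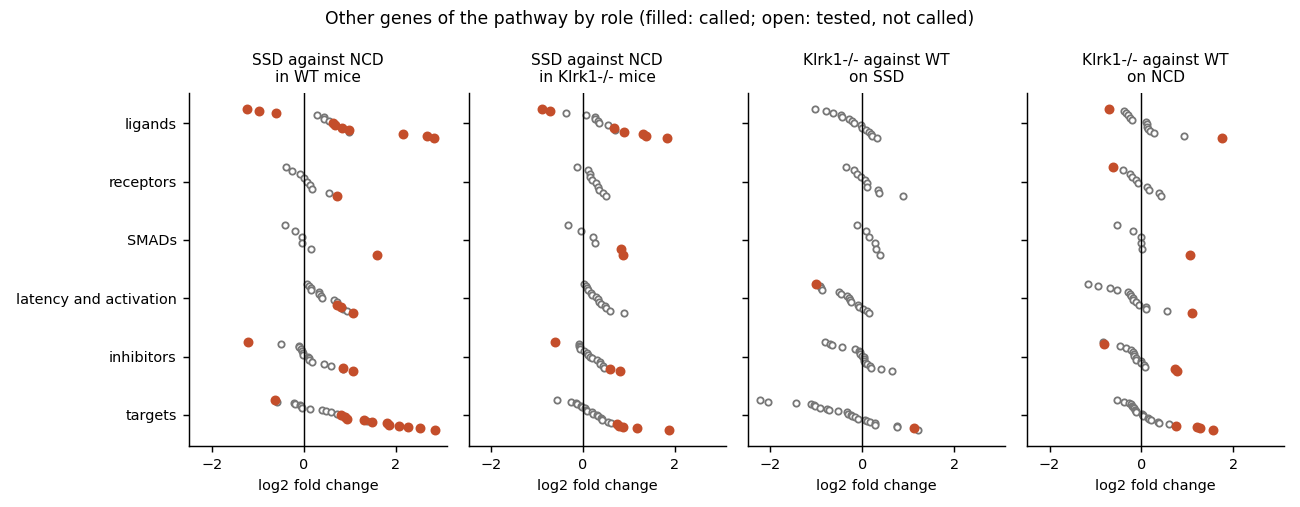
log2 fold changes (x axis) of the tested genes among 108 other pathway genes, by role (y axis), in 4 comparisons. Each point is a gene, filled where called. Called genes number 30 for diet in WT mice, 17 for diet in Klrk1-/- mice, 2 for genotype on SSD and 12 for genotype on NCD.

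Some markers of other liver cells were called with the diet in WT mice, where 19.3% of all genes tested were called, 11.9% higher. Macrophage and Kupffer cell markers were called higher for 4 of 8 genes, and their sum ranged from 5536 to 6143 normalized counts on NCD and from 7524 to 18418 on SSD. The sum was 18418 in SSD-fed WT replicate 1, the mouse with the highest Tgfb1, Tgfb2, Tgfb3, Tgfbr1, Tgfbr2, Smad7 and Bmp8b of its group. Monocyte markers were called higher for 2 of 4 genes (161 to 245 against 233 to 897), stellate cell markers for 2 of 8 (5020 to 6385 against 5941 to 8208) and markers of sinusoidal endothelium for 2 of 6 (2707 to 4457 against 4448 to 5200). No marker of these 4 lists was at 0 in any group. Hepatocyte markers were called lower for 3 of 6 genes, where 7.32% of all genes tested were called lower. They summed to 2.27e+06 to 2.56e+06 normalized counts on NCD and 1.44e+06 to 1.82e+06 on SSD. The part of all these lists in the rises of Tgfb1, Smad7 and the pathway genes was not tested.

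**Figure D4:**
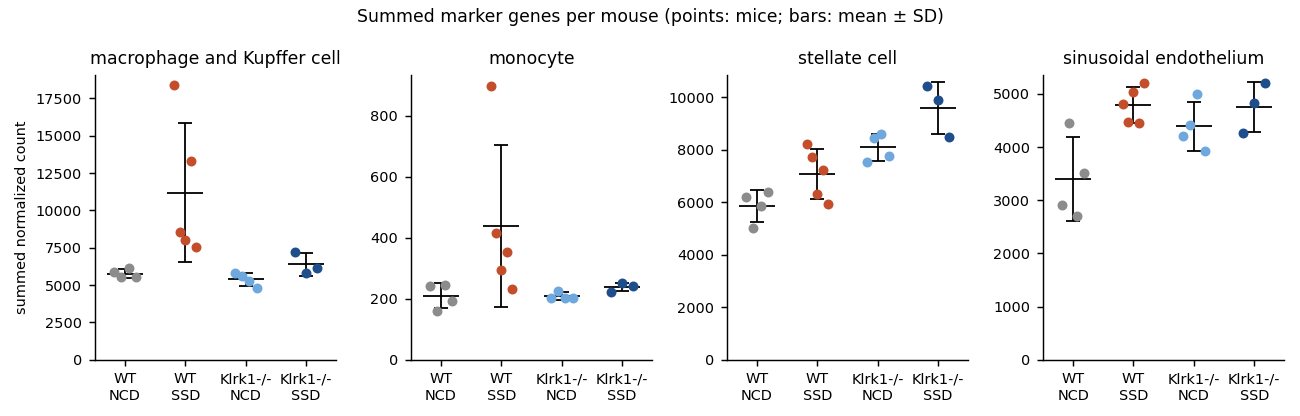
Summed normalized counts (linear axes from 0) of 4 marker lists in each mouse (points), by genotype and diet, with the group mean ± SD (bars). Macrophage and Kupffer cell markers reach 18418 in SSD-fed WT mice, and stellate cell markers sum to 8503 to 10418 in SSD-fed Klrk1-/- mice, where Ecm1 was the 1 marker of 8 called between genotypes.

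The same diet comparison in Klrk1-/- mice addressed whether the pathway moved without NKG2D. Smad7 was the only member called, of 7 tested, where 13.1% of all 12904 genes tested were called, 6.54% higher and 6.60% lower. The median log2 fold change of the 9 genes was 0.22, against -0.0020 for all genes tested. Smad7 had 173, 175, 282 and 141 normalized counts on NCD and 448, 381 and 287 on SSD, and the lowest SSD-fed mouse lay only just above the highest NCD-fed mouse. Its log2 fold change was 0.97 ± 0.21 (SE, limma adjusted p = 0.00585). An exact permutation test of 3 against 4 mice cannot go below p = 0.0571.

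Tgfb1 in Klrk1-/- mice had 91.9, 94.6, 162 and 105 normalized counts on NCD and 163, 137 and 169.7 on SSD. NCD-fed replicate 3 lay among the SSD-fed mice, and the log2 fold change of 0.50 ± 0.19 (SE) did not pass the test (limma adjusted p = 0.0683). Without that mouse it was 0.68 and called (limma adjusted p = 0.00413). Tgfbr1 had 406, 373, 388 and 333 normalized counts on NCD and 543, 478 and 491 on SSD, and Smad3 had 317, 254, 312 and 277 against 401, 426 and 403. Neither gene overlapped between the diets, yet at 1.34-fold (limma adjusted p = 0.00779) and 1.42-fold (limma adjusted p = 0.00423) both stayed under the fold limit. With Smad7, 3 of the 7 genes tested did not overlap, against 37.6% of all genes tested.

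The remaining members did not pass the test in Klrk1-/- mice. Tgfbr2 ranged from 325 to 423 normalized counts on NCD and from 354 to 418 on SSD (limma adjusted p = 0.726), Tgfb3 from 18.7 to 31.0 and from 20.3 to 27.3 (limma adjusted p = 0.994), and Inhba from 186 to 341 and from 172 to 327 (limma adjusted p = 0.753). Tgfb2 (6.22 to 12.3 against 7.73 to 15.3) and Bmp8b (3.73 to 12.3 against 3.43 to 9.66) were below the minimum mean. For Bmp8b, 24 reads on NCD stood against 22 on SSD, a ratio of 0.875 (95% exact interval 0.468 to 1.63, counting error only).

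Among the other pathway genes, 17 of 85 were called in Klrk1-/- mice, 14 higher and 3 lower on SSD, where 13.1% of all genes tested were called, 6.54% higher and 6.60% lower. The median over these genes was 0.29 on the log2 scale, against -0.0020 for all genes. These were 7 of 15 ligands (5 higher, 2 lower, or 6 of 14 with 1 lower without the protease gene Bmp1), 0 of 10 receptors, 2 of 6 SMADs, 0 of 14 genes of latency and activation, 3 of 17 inhibitors and 5 of 23 targets. Gdf9 (1.82), the hepatic activin subunit gene Inhbe (1.37) and Inhbb (1.31) were the ligands with the largest changes, and Gdf9 reached the minimum mean only through the SSD-fed mice (5.44 against 21.8 normalized counts). Gdf15 was at 288 ± 62.0 (SD, n = 4) and 297 ± 62.1 (SD, n = 3) normalized counts (limma adjusted p = 0.853). Smad6, the inhibitory SMAD of the BMP branch, rose by 0.87 and Smad9 by 0.83 on the log2 scale. The BMP target genes Id1 (1.87) and Id2 (1.17) and the TGF-beta target Tgfbi (0.86) were the largest rises among targets. Of the inhibitors, Skil (0.81) and Pmepa1 (0.59) rose. Macrophage markers were called for 1 of 8 genes, with sums of 4814 to 5797 on NCD and 5782 to 7217 on SSD, and stellate cell markers for 2 of 8, with sums of 7556 to 8590 and 8503 to 10418. Their part in these changes was not tested.

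Whether the response to SSD differed between genotypes was tested as a diet by genotype interaction over all 16 mice, where 0.849% of 13068 genes were called, 0.291% higher and 0.559% lower. None of the 8 members tested was called (0 also with edgeR and with DESeq2), and 1, Smad3, had an unadjusted p under 0.05. The share of all genes under that unadjusted limit is not given here. On the log2 scale Smad3 was 0.0044 higher on SSD in WT and 0.50 higher in Klrk1-/- mice. The difference between these responses was 0.50 ± 0.19 (SE, limma unadjusted p = 0.0177, limma adjusted p = 0.200). For Tgfb1 the difference in response was -0.41 ± 0.30 (SE, limma adjusted p = 0.488), so the rise called in WT mice alone was not shown to be larger there. For Smad7 it was 0.05 ± 0.25 (SE, limma adjusted p = 0.938). Leaving out SSD-fed WT replicate 1, these differences were 0.51 for Smad3, -0.24 for Tgfb1 and 0.13 for Smad7, and 0 of the 8 members were called. The median difference over the 9 genes was -0.07, against 0.00041 for all genes tested.

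Of the 89 other pathway genes tested for the interaction, 4 were called, 3 lower and 1 higher, and all 4 were called without SSD-fed WT replicate 1 too. The responses of Gdf15 (-2.77 on the log2 scale, limma adjusted p = 0.00190), Cdkn1a (-2.19, limma adjusted p = 0.0181) and the TGF-beta inducible gene Klf10 (-1.29, limma adjusted p = 0.0174) were lower in Klrk1-/- mice. All 3 were higher in Klrk1-/- than in WT mice already on NCD, by 1.75, 1.26 and 1.56. Id2 had a response 1.24 higher in Klrk1-/- mice (limma adjusted p = 0.0340), with 2035 ± 367 and 1934 ± 264 normalized counts in WT mice on NCD (SD, n = 4) and SSD (SD, n = 5), and 1913 ± 539.5 (SD, n = 4) and 4205 ± 742 (SD, n = 3) in Klrk1-/- mice. Without SSD-fed Klrk1-/- replicate 1 the count was 2 rather than 4, while all genes called went from 111 to 39.

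Between Klrk1-/- and WT mice on SSD, none of the 9 members was called, where 2.13% of all 13116 genes tested were called, 0.709% higher and 1.42% lower in Klrk1-/- mice. This comparison uses the same SSD-fed mice as the diet comparisons. In limma's test 5 members had an unadjusted p under 0.05, a limit whose share over all genes is not given here. With edgeR and DESeq2, 0 members were called. The median log2 fold change was -0.41, against -0.0010 for all genes tested, with 7 genes lower and 2 higher in value. All 3 Klrk1-/- mice lay below all 5 WT mice for Tgfbr1 (log2 fold change -0.30 ± 0.10 SE, limma adjusted p = 0.128), Tgfbr2 (-0.49 ± 0.14 SE, limma adjusted p = 0.0836) and Bmp8b (-1.20 ± 0.42 SE, limma adjusted p = 0.139). The exact permutation p was 0.0357 for each of these 3 genes, the smallest that 3 against 5 mice allow, and 17.9% of all genes tested did not overlap either. For Bmp8b the reads were 10, 8 and 4 in Klrk1-/- mice, a ratio to WT of 0.381 (95% exact interval 0.229 to 0.609, counting error only). Bmp8b averaged 16.1 normalized counts in WT and 6.50 in Klrk1-/- mice and reached the minimum mean only through the WT mice. Without SSD-fed WT replicate 1 its ratio was 0.480 (95% exact interval 0.280 to 0.792), and the log2 fold changes were -0.24 for Tgfbr1, -0.41 for Tgfbr2 and -0.99 for Bmp8b.

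Smad7 and Smad3 were the members with higher values in Klrk1-/- mice among those fed SSD, by 0.43 (limma adjusted p = 0.150) and 0.07 (limma adjusted p = 0.714) on the log2 scale. Tgfb1 overlapped between genotypes, with a log2 fold change of -0.41 ± 0.22 (SE, limma adjusted p = 0.288), as did Tgfb2 (-0.98, limma adjusted p = 0.236), Tgfb3 (-0.80, limma adjusted p = 0.186) and Inhba (-0.41, limma adjusted p = 0.337). When SSD-fed WT replicate 1 was left out the values were 0.50 for Smad7, 0.08 for Smad3, -0.24 for Tgfb1, -0.76 for Tgfb2, -0.64 for Tgfb3 and -0.50 for Inhba, and 0 of the 9 members were called. Without SSD-fed WT replicate 5, the lowest of its group in Tgfb3, that gene was called lower in Klrk1-/- mice (-1.04, limma adjusted p = 0.0401). Of 89 other pathway genes tested 2 were called, Ltbp1 lower (0.501-fold, limma adjusted p = 0.0375) and Id2 higher (2.17-fold, limma adjusted p = 0.00610). Without SSD-fed WT replicate 1 the count was 7, Ltbp1 and Id2 among them, and without SSD-fed WT replicate 5 it was 7 too, while the share called of all genes went from 2.13% to 3.42% and 3.17%. Macrophage markers, of which 1 of 8 was called lower, summed to 5782 to 7217 in Klrk1-/- and to 7524 to 18418 in WT mice, while stellate cell markers summed to 8503 to 10418 and 5941 to 8208. Of these 8 genes Ecm1 alone was called (0.68), the median log2 fold change was 0.010 and 4 were above 0, with Pdgfrb at -0.27 and Hgf at -0.29, so the sum does not stand for the list. Their part in these differences was not tested.

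On NCD, the clearest difference between genotypes was in Inhba, which in Klrk1-/- mice was at 0.553 of its WT level. Its normalized counts were 371, 369.5, 512 and 452 in WT mice and 186, 341, 243 and 192 in Klrk1-/- mice, without overlap. On the log2 scale it was lower by 0.85 (-0.85 ± 0.18, SE), with a limma adjusted p of 0.0113. The exact permutation p was 0.0286, as low as 4 against 4 mice can go. Inhba was thus the only member called of 8 tested, where 5.79% of all 12845 genes tested were called, 2.92% higher and 2.87% lower. The median log2 fold change of the 9 genes was -0.31, against 0.0018 for all genes tested. The NCD-fed WT mice are the controls of the diet comparison in WT mice too.

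Tgfbr1 and Smad3 were also lower in value in all 4 NCD-fed Klrk1-/- mice than in all 4 NCD-fed WT mice. Tgfbr1 passed the adjusted p limit but not the fold limit (0.761-fold, limma adjusted p = 0.0259), and Smad3 passed neither (0.744-fold, limma adjusted p = 0.0705). Together with Inhba, 3 of the 8 genes tested did not overlap, as did 19.3% of all genes tested. Bmp8b, not tested here, had 8, 3, 3 and 10 reads in Klrk1-/- mice against 1, 1, 0 and 2 in WT mice. All Klrk1-/- mice lay above all WT mice, with a ratio of 6.37 (95% exact interval 2.19 to 25.3, counting error only). Ppie, which overlaps Bmp8b, was also higher in value in every NCD-fed Klrk1-/- mouse (318 to 331 normalized counts) than in every NCD-fed WT mouse (299 to 313), and its part in the Bmp8b difference was not tested.

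For the other members on NCD, the genotypes overlapped. Tgfb1 differed by 0.0044 on the log2 scale (standard error 0.18, limma adjusted p = 0.990), Tgfb3 by -0.01 ± 0.29 (SE, limma adjusted p = 0.980), Tgfb2 by -0.91 ± 0.39 (SE, limma adjusted p = 0.130), Tgfbr2 by -0.31 ± 0.13 (SE, limma adjusted p = 0.130) and Smad7 by 0.38 ± 0.18 (SE, limma adjusted p = 0.173). Tgfb2 averaged 9.08 normalized counts in Klrk1-/- and 18.9 in WT mice, so it reached the minimum mean only through the WT mice. Of 84 other pathway genes tested, 12 were called, 9 higher and 3 lower in Klrk1-/- mice, where 5.79% of all genes were called. The median of the 84 genes was -0.11 on the log2 scale, against 0.0018 for all genes. Higher were Gdf15 (1.75), Klf10 (1.56), Cdkn1a (1.26), Id1 (1.20), Itgb3 (1.10), Smad9 (1.06) and Tgif1 (0.73) among others. Lower were the SMAD corepressor Skil (-0.82), Inhbe (-0.71) and the activin and BMP type I receptor Acvr1 (-0.62). Stellate cell markers summed to 7556 to 8590 in Klrk1-/- and 5020 to 6385 in WT mice, with Ecm1 (0.59) the 1 of 8 called and a median log2 fold change of 0.21, and macrophage markers to 4814 to 5797 and 5536 to 6143, with 0 of 8 called. Bile duct markers summed to 898 to 1221 in Klrk1-/- and 1084 to 2873 in WT mice, and Krt19 alone was called (-1.03). Of the others, Epcam (-1.22), Krt7 (-0.83) and Spp1 (-0.78) were lower in value and Sox9 was at 0.06. Markers of sinusoidal endothelium summed to 3936 to 5008 in Klrk1-/- and 2707 to 4457 in WT mice, with 1 of 6 called higher, 6 of 6 above 0 and a median log2 fold change of 0.32. Their part in these differences was not tested.

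Across the 4 groups, Tgfb1 was highest in SSD-fed WT mice (215 ± 69.0, SD, n = 5), followed by SSD-fed Klrk1-/- (157 ± 17.1, SD, n = 3), NCD-fed Klrk1-/- (113 ± 32.8, SD, n = 4) and NCD-fed WT mice (110.4 ± 13.2, SD, n = 4), and no pair of neighbours in this order was called. Smad7 was highest in SSD-fed Klrk1-/- mice (372 ± 80.8, SD, n = 3), then SSD-fed WT (274 ± 38.5, SD, n = 5), NCD-fed Klrk1-/- (193 ± 61.4, SD, n = 4) and NCD-fed WT mice (144 ± 10.3, SD, n = 4). Neighbours of the same diet were not called, and the middle groups overlapped. Inhba was highest in NCD-fed WT mice (426 ± 69.1, SD, n = 4) and at 293 ± 72.4 (SD, n = 5), 240.4 ± 71.7 (SD, n = 4) and 225 ± 88.4 (SD, n = 3) normalized counts in SSD-fed WT, NCD-fed Klrk1-/- and SSD-fed Klrk1-/- mice, with the ranges of all neighbours overlapping. Tgfbr1 was highest in SSD-fed WT (622 ± 67.4, SD, n = 5), near equal in SSD-fed Klrk1-/- (504 ± 34.3, SD, n = 3) and NCD-fed WT mice (493 ± 37.7, SD, n = 4), and lowest in NCD-fed Klrk1-/- mice (375 ± 30.8, SD, n = 4). Tgfbr2 stood at 553 ± 96.2 (SD, n = 5) and 466 ± 77.4 (SD, n = 4) in WT mice on SSD and on NCD, and at 389 ± 32.6 (SD, n = 3) and 375 ± 41.2 (SD, n = 4) in Klrk1-/- mice in the same order. Smad3 was between 391 and 409.8 in the mean of 3 groups and lowest, at 290.0 ± 30.0 (SD, n = 4), in NCD-fed Klrk1-/- mice. Tgfb3 lay between 24.1 and 25.1 in the mean of 3 groups and was at 45.1 ± 16.2 (SD, n = 5) in SSD-fed WT mice, and group means of Tgfb2 ranged from 9.08 to 24.3.

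Within groups, the members varied together only in part. Deviations of log2 values from group means were correlated over the 16 mice, which share depth and normalization with every gene of their library, and the values are descriptions only. SSD-fed WT replicate 1, the highest of its group in Tgfb1, Tgfb2, Tgfb3, Tgfbr1, Tgfbr2 and Smad7, was included. Correlations without it are not given, so 1 mouse may carry some of them. Bmp8b, below the minimum mean over all mice, was left out. The closest pair of the other 8 members was Tgfb3 and Tgfbr2 (Pearson's r = 0.79), followed by Tgfb1 and Smad7 (0.62) and Tgfb2 and Tgfb3 (0.59). Over all genes, the closest to Tgfb1 were Hcls1 and Sh3pxd2b (both 0.92), to Tgfb2 the osteopontin gene Spp1 (0.92) and Col6a3 (0.90), to Tgfb3 Ccdc3 (0.90) and Castor1 (0.89), and to Tgfbr1 Csf1 (0.86) and Ckap4 (0.84). For Tgfbr2 they were Rtn4 (0.90) and Gpm6a (0.89), for Smad3 Tmc8 (0.85) and Gtf2ird1 (0.84), for Smad7 Grap (0.83) and Tacc2 (0.82), and for Inhba Acot11 (0.86) and Hsd17b2 (0.82).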

How the data were processed

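Whole-liver RNA of 16 mice was sequenced as single reads, with groups taken from the sample labels. The study's methods name a total RNA kit and the labels an mRNA kit. Read quality (FastQC), alignment to GRCm39 (STAR) and gene counts (FeatureCounts, GENCODE) were the authors' work. They deposited a signal per gene and mouse, the count divided by 1 factor per library, called a normalized count here. How the factors were computed, and whether strand was used, is not given in the sources used here. All 16 libraries gave whole reads for 100% of values (tolerance 0.02). Gene lengths are other values deposited by the authors.

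Differences were tested with limma 3.58.1 in R 4.3.3, with a variance trend, on log2(normalized count + 1), for genes whose mean over the mice compared reached 10, with Benjamini-Hochberg adjustment over all genes tested. A call needed an adjusted p under 0.05 together with a change beyond 1.5-fold. Fold changes on this scale understate those of low genes. For single members, mice were also permuted exactly, two-sided and unadjusted. The floor of a library was set at 3 reads. Ratios of reads carry 95% exact binomial intervals, which cover counting error only. The scripts were tested on simulated data.

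Named pathway genes are, for each list, the up to 3 called genes with the largest change in a comparison (some are not reported here), and the genes most like a member are the 2 with the highest correlation. The 9 members and the lists of pathway genes and markers were chosen with earlier results of these data known, so no list is independent evidence. Alternatives were other pseudocounts, minimum means, scalings and fold limits, count models of the whole reads (edgeR 4.0.16, DESeq2 1.42.0), a block for replicate number, 1 model of all groups and leaving out each mouse. Positions are the authors' (GRCm39), and overlaps come from GENCODE M39.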

Additional observations from a re-analysis of the deposited data

Results flagged for a closer look

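Bmp8b was marked because the genotypes differed in opposite directions on the 2 diets. On NCD all 4 Klrk1-/- mice lay above all 4 WT mice, by 1.93 on the log2 scale, and on SSD all 3 Klrk1-/- mice lay below all 5 WT mice, by 1.20 (-1.20). The difference between these effects, equal to the diet by genotype interaction, was -3.13. It was not tested in the model of all 16 mice, since the mean of 8.33 normalized counts was below the minimum. In the alternative without a minimum mean, limma's adjusted p for this difference was 0.0392. The NCD-fed WT mice held only 4 reads of Bmp8b in all, so the size of this value rests on few reads. Among 27 pairs of a member and a group of 4 or 5 mice, 0 held a mouse far from the others by Dixon's criterion, and the 3 SSD-fed Klrk1-/- mice were too few to examine.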

How the results depend on the processing

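Of 820 alternatives for single members, 752 kept direction and side of the threshold, 45 turned direction (of values that were not called), 23 became called and 0 lost a call, with the 1.5-fold limit kept throughout. Tgfb1 (log2 0.74 to 1.26) and Smad7 (0.84 to 1.26) for diet in WT, Smad7 for diet in Klrk1-/- (0.82 to 1.22) and Inhba for genotype on NCD (-1.04 to -0.73) were called in every one of these alternatives. Members called numbered 6 rather than 2 for diet in WT (Bmp8b among them) and 4 rather than 1 in Klrk1-/- mice with libraries scaled to equal totals. Scaled so, Bmp8b reached the minimum mean only through the SSD-fed WT mice. This scaling moves the median of all genes to 0.34 and 0.25 (and to -0.12 for genotype on SSD), and all genes called go from 1564 higher and 958 lower to 3496 and 408 in WT, from 844 and 852 to 2123 and 476 in Klrk1-/- mice, and from 93 and 186 to 52 and 274 for genotype on SSD. Without a fold limit, members called were 4, 3 and 2 (diet in WT, diet in Klrk1-/-, genotype on NCD), with a fold limit of 2 they were 0, 0 and 0, and without a minimum mean they were 3 for diet in WT, 2 for genotype on NCD and 1 for the interaction, Bmp8b being the gene added. Leaving out 1 mouse gave 2 to 4 (4 without NCD-fed WT replicate 1 or 2, Inhba and Bmp8b being added), 1 to 2 (2 without NCD-fed Klrk1-/- replicate 3) and, for genotype on SSD, 0 to 1. Bmp8b was called whichever of the 4 NCD-fed WT mice was left out, and there it reached the minimum mean only through the SSD-fed mice. Other pathway genes called were 48 (WT) and 30 (Klrk1-/-) for diet and 4 for genotype on SSD with equal totals, and 28 for diet in Klrk1-/- without a fold limit. With a fold limit of 2 they were 16, 5, 1 and 6 (diet in WT and Klrk1-/-, genotype on SSD and NCD). For genotype on SSD they were 1 without a variance trend, 5 with all groups in 1 model and 9 with DESeq2, which called 669 of all genes against 279, and for the interaction 7 with DESeq2 (354 against 111). Leaving out 1 mouse gave 11 to 18 for diet in Klrk1-/- (11 without SSD-fed replicate 1), 1 to 7 for genotype on SSD (7 without SSD-fed WT replicate 1 and 7 without replicate 5) and 2 to 4 for the interaction. For genotype on SSD all genes called then ranged from 45 (without SSD-fed Klrk1-/- replicate 1) to 447 (without SSD-fed WT replicate 1). The cause of these shifts was not tested.

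Replicate numbers were not treated as pairs in the main fits, since the labels name separate animals. Deviations of same-numbered mice correlated at -0.15 to 0.24. With so few mice per group these values cannot decide whether same-numbered mice shared housing or handling, which was not tested. Fits with the number as a replicate block also left out mice without a same-numbered partner, so mice and model changed together. Each number kept was in every group of its fit, so the block alters the SE and p but not the log2 fold change. In these fits Tgfbr2 was the 1 member called for genotype on SSD (-0.63, limma adjusted p = 0.0301). Pathway genes called were 18 there and 2 for the interaction, where all genes called went from 279 to 595 and from 111 to 51. For genotype on NCD all genes called went from 744 to 1129. In the block fits the interactions of Tgfbr1 (-0.046) and Smad7 (-0.17) turned, as did Smad3 for diet in WT (-0.044). Leaving out SSD-fed WT replicate 4 without a block also gave -0.044 for Smad3, so that turn is not put down to the block.

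Other values near 0 turned as follows. Equal totals gave Tgfb1 -0.022 for genotype on NCD, Smad3 -0.042 for genotype on SSD, Smad7 -0.039 for the interaction and Inhba 0.14 for diet in Klrk1-/- mice. Quantile normalization gave Tgfb1 -0.032 for genotype on NCD, Tgfb2 -0.14 for diet in WT and 0.21 for the interaction, and Tgfb3 -0.040 for diet in Klrk1-/- mice. The latter was -0.0018 with a pseudocount of 10, -0.0055 with edgeR and -0.011 with DESeq2, and Smad3 for diet in WT was -0.019 and -0.011 with these tools. Leaving out 1 mouse gave ranges that include 0 for Tgfb1 (-0.18 to 0.0905) and Tgfb3 (-0.25 to 0.11) for genotype on NCD, for Tgfb3 (-0.11 to 0.12), Tgfbr2 (-0.0074 to 0.13) and Inhba (-0.42 to 0.063) for diet in Klrk1-/- mice, for Smad3 (-0.080 to 0.15) for diet in WT, and for the interactions of Tgfb2 (-0.37 to 0.15) and Smad7 (-0.10 to 0.25). The ratios of Bmp8b reads without SSD-fed WT replicate 1 were computed after seeing the data. At under 10 normalized counts, as for Bmp8b, depth limits what can be told apart.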

Other observations

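Marker lists of the other cells of the liver and blood are given here as values. Hepatocyte markers were called lower on SSD for 3 of 6 genes in WT and 3 of 6 in Klrk1-/- mice. Of all genes tested, 7.32% and 6.60% were called lower there. In Klrk1-/- mice they summed to 2.17e+06 to 2.87e+06 normalized counts on NCD and 1.93e+06 to 2.09e+06 on SSD. Between genotypes on NCD, 1 of 6 was called lower in Klrk1-/- mice, where 2.87% of all genes tested were. Bile duct markers ranged from 1084 to 2873 normalized counts in NCD-fed WT, from 896 to 2988 in SSD-fed WT, from 898 to 1221 in NCD-fed Klrk1-/- and from 1012 to 1252 in SSD-fed Klrk1-/- mice. They were called for 0 of 5 genes for the diet in WT mice, 1 of 5 in Klrk1-/- mice, 0 of 5 between genotypes on SSD and 1 of 5 on NCD. T and NK cell markers summed to 36.2 to 84.4 normalized counts over all mice, B cell markers to 33.8 to 113, neutrophil markers to 19.6 to 102 and platelet markers to 117 to 264. At these levels only 1 to 3 of the 6 T and NK cell genes and 2 of the 4 neutrophil genes reached the minimum mean in a comparison. Of these 4 lists, 1 B cell gene was called, higher in NCD-fed Klrk1-/- than in NCD-fed WT mice, and the neutrophil marker Ly6g was at 0 in every group.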
